A study of Homo sapiens with 6 samples.

Results

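The transient receptor potential (TRP) channel genes TRPC6, TRPC1, TRPV1, TRPV2, TRPV4, TRPM2, TRPM4 and TRPM7 were followed as 8 of the 22794 genes listed in both deposited tables. They were chosen by symbol, and each symbol named 1 row. The libraries came from the cell line CAL-51, grown from a human breast carcinoma, after transfection with a plasmid that carries a p27-mVenus reporter and a sort by p27. There were 3 libraries of p27-positive cells (p27+) and 3 libraries of p27-negative cells (p27-), all from this 1 line, and libraries without plasmid are not analysed here. Responses to carrying the plasmid and to the p27 state therefore cannot be told apart. Separate cultures are not named in the labels, so p-values measure only how these libraries vary, which may be technical.

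TRP channels are cation channels of the plasma membrane and of inner membranes, and most of them admit calcium. TRPC channels open downstream of receptors that activate phospholipase C, and TRPC6 is opened directly by diacylglycerol, the lipid that phospholipase C releases. TRPV channels respond to heat, ligands, swelling or stretch, and TRPM channels to calcium, ADP-ribose, magnesium or voltage. The series title names TRPC6 as a calcium channel whose inhibition is used to induce ferroptosis, a form of cell death in which iron drives the oxidation of membrane lipids.

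The recovered reads came to between 22216934 and 28609257 per library. MKI67, whose product marks cycling cells, differed by -1.78 ± 0.03 on the log2 scale (p27-positive minus p27-negative, ± SE), and CDKN1B, the gene of p27, by -0.35 ± 0.07. Of the 7 breast epithelial markers KRT8, KRT18 and KRT19 were abundant (means of 458 to 544 FPKM in p27-positive and 127 to 369 FPKM in p27-negative cells), while CDH1 averaged 0.0324 FPKM in p27-positive cells and was listed at 0 in p27-negative cells. EPCAM was lower in p27-positive cells (10.4 FPKM, against 11.7 FPKM in p27-negative cells; log2 fold change -0.3 ± 0.1; limma, adjusted p = 0.018). GATA3 averaged 0.0555 FPKM in p27-positive cells, against 0.0451 FPKM in p27-negative cells, and ESR1 0.0376 FPKM, against 0.00728 FPKM. The 4 mesenchymal markers summed to 21.8 to 23.0 FPKM in the p27-positive libraries, against 23.3 to 25.8 FPKM in the p27-negative ones. The summed level of the 3 endothelial markers was 26.7 to 28.4 FPKM in the p27-positive libraries, against 16.2 to 16.8 FPKM in the p27-negative ones, and that of the 3 stromal markers 1.38 to 1.66 FPKM in the p27-positive libraries, against 0.397 to 0.686 FPKM in the p27-negative ones. Leukocyte markers summed to 0.566 to 1.01 FPKM in the p27-positive libraries, against 0.271 to 0.606 FPKM in the p27-negative ones, with 3 of 5 measured. ITGAM made up most of that sum (means of 0.682 FPKM in p27-positive and 0.309 FPKM in p27-negative cells). PTPRC was lower but not called (0.0441 against 0.0616 FPKM), and CD14 was at 0.111 against 0.0955 FPKM. The endothelial sum came from CDH5 (20.8 against 13.9 FPKM) and VWF (6.74 against 2.6 FPKM), with PECAM1 at 0.0184 against 0.0151 FPKM. The part of these marker genes in the results on the channels was not tested.

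The start regions of 4 channels are shown: TRPC6 and TRPM2, nearly unread in the p27-negative sort, TRPC1, the TRPC relative that rose modestly, and TRPM7, with no detected change. Each is the 250 bases before a RefSeq transcript start (GRCh38.p14, the same assembly as hg38), read 5′ to 3′ on the gene's strand. The RefSeq table matched 6 of the 8 channels by symbol. Where it holds several starts for a gene, the window printed is that of the start nearest to the start of the gene in the deposited tables. Capitals mark GGAAA or its complement TTTCC, the core sequence bound by NFAT transcription factors, most of which are regulated by calcium.
TRPC6, chr11:101584008-101584257, minus strand: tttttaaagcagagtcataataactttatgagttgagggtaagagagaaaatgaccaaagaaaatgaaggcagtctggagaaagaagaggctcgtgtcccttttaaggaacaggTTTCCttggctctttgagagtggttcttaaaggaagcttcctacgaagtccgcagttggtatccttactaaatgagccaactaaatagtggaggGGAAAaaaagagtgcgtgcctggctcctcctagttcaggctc
TRPM2, chr21:44349891-44350140, plus strand: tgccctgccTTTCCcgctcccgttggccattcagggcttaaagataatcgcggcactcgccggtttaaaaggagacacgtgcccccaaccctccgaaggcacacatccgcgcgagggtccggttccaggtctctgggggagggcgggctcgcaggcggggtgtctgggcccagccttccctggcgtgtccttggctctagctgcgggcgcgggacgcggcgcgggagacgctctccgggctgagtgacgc
TRPC1, chr3:142723784-142724033, plus strand: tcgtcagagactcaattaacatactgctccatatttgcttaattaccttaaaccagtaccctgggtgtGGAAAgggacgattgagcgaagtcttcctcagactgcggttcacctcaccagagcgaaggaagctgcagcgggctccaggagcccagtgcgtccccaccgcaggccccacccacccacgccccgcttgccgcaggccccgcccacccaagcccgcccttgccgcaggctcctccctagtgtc
TRPM7, chr15:50686798-50687047, minus strand: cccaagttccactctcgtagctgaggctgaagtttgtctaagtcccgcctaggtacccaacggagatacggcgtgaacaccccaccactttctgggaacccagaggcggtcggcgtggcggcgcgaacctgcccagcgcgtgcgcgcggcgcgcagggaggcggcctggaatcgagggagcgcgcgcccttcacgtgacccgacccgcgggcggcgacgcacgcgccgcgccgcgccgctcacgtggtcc

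The printed window of TRPC6 held 4 CG dinucleotides, that of TRPC1 14, that of TRPM2 26 and that of TRPM7 38. The median over 35116 RefSeq windows of this length was 11, and 34.3% of them held as few as that of TRPC6. Other RefSeq starts have other values, with 0 in a second window of TRPC1 and 5 and 15 in further windows of TRPM2. GGAAA on either strand occurred at 2 places for TRPC6, 1 for TRPC1, 1 for TRPM2 and 0 for TRPM7, and 55.6% of all windows held it. CACGTG, an E-box that is its own complement, occurred at 0 places for TRPC6 and TRPC1, 1 for TRPM2 and 2 for TRPM7, against 6.34% of all windows with a match. GGGCGG or CCGCCC (42.6% of all windows) was found at 0 places for TRPC6, 2 for TRPC1 and 1 each for TRPM2 and TRPM7, and TATAAA or TTTATA (10.7%) in none of these 4 windows. No match overlapped one of another motif in the 4 windows. The 1 RefSeq start of TRPC6 in the table lies 289 kb inside the gene span that the tables give, whereas the printed starts of TRPC1 and TRPM7 coincide with the end of the span and that of TRPM2 lies 22 bases from it. Further starts lie 10.2 kb inside the span for TRPC1, and 3.46 and 75.5 kb inside it for TRPM2.

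TRPC6 (ENSG00000137672; chromosome 11, 101451564 to 101872562, minus strand, in hg38, the build that the submitters' processing notes name) had 52 of its 53 reads in the p27-positive sort. There were 28, 14 and 10 reads in its 3 libraries, against 0, 1 and 0 reads in the p27-negative ones. No p27-negative library reached the lowest p27-positive library, but the p27-positive libraries themselves differed widely, and replicate 1 held more reads than replicates 2 and 3 together. The normalized counts averaged 16.8 ± 10.2 in the p27-positive libraries, against 0.371 ± 0.642 in the p27-negative ones (SD, n = 3 each). In units per gene length the level was 0.214, 0.104 and 0.0666 FPKM in p27-positive libraries and 0, 0.00778 and 0 FPKM in p27-negative libraries. The p27-positive mean of 0.128 FPKM lay above 16.1% of all listed genes, so the transcript was scarce also where it was read. Within the span of TRPC6, GENCODE release 29 has a transcribed pseudogene on the opposite strand (AP003080.1) and a pseudogene on the same strand (AP000776.1). Part of these few reads may belong to AP000776.1. Part may also belong to AP003080.1 if the counting ignored strand, a setting that is not given. Whether more of the cells held it or each cell held more cannot be told apart in bulk RNA.

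Scaled by the size factors, the 52 p27-positive reads were 47.3 times the 1 p27-negative read, with a 95% counting interval of 8.12 to 1903. TRPC6 rose by 3.64 ± 1.0 on the scale of log2(normalized count + 1), where folds of scarce genes come out too small (limma, adjusted p = 0.0024). On recovered reads the log2 fold change was 5.15 with edgeR (adjusted p = 0.0014) and 5.49 with DESeq2 (adjusted p = 0.00067), and it was 1.92 with a pseudocount of 5 and 1.10 in the FPKM table, so its size depends on the scale. An exact two-sided permutation test of the 6 normalized counts gave p = 0.1, the smallest that 3 against 3 libraries allow.

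TRPM2, a calcium channel opened by ADP-ribose and oxidative stress, had the same kind of pattern at a lower level. It had 9, 3 and 12 reads in the p27-positive libraries, against 0, 1 and 0 reads in the p27-negative ones. The groups did not overlap, yet the lowest p27-positive library stood at 2.88 normalized counts against 1.11 in the highest p27-negative one. Scaled by the size factors, its 24 p27-positive reads were 21.8 times the 1 p27-negative read (95% counting interval 3.56 to 897), and the log2 fold change of 2.57 ± 1.08 did not pass (limma, adjusted p = 0.057). It passed with DESeq2 (adjusted p = 0.041), with scaling to the library total (0.049), without the trended prior (0.029), without p27-positive replicate 2 (0.028) and without p27-negative replicate 2 (0.049), and not with edgeR (0.12). An antisense gene, TRPM2-AS, lies within TRPM2 (chromosome 21, 44350163 to 44443081) in GENCODE release 29. Part of the few TRPM2 reads may therefore belong to TRPM2-AS if the counting ignored strand. On the same strand, 2 small nucleolar RNA genes lie within TRPM2, and part of the reads may also belong to them.

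**Figure D1:**
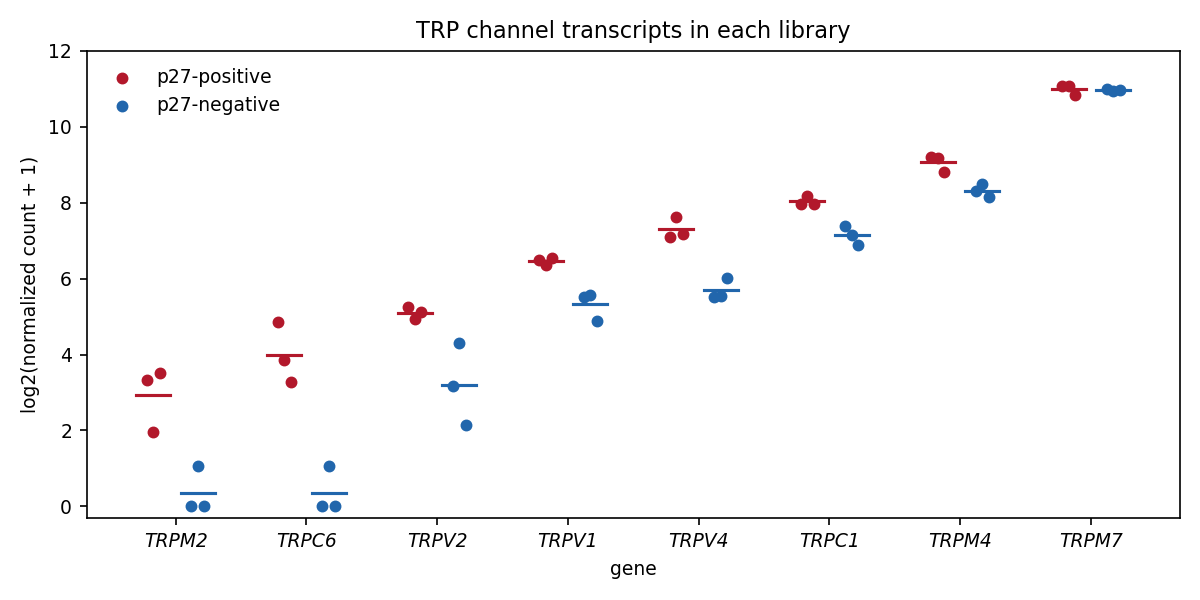
Normalized counts of the 8 channels in each library, on the scale of log2(normalized count + 1), with p27-positive libraries in red left of p27-negative libraries in blue and a bar at each group's mean. TRPC6 and TRPM2 are at or near 0 in the p27-negative libraries, and TRPM7 is at about the same level in both sorts.

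TRPC1, a TRPC subunit that forms channels with its relatives, was the other member of that subfamily. Its normalized counts were 251, 287 and 248 in p27-positive libraries and 166, 142 and 118 in p27-negative libraries. Each p27-positive library lay above each p27-negative one. TRPC1 (chromosome 3, 142724034 to 142807888) rose by 0.89 ± 0.19 (limma, adjusted p = 7.6e-05), or 1.85-fold, and kept its call under all 18 alternatives. Per length it stood at 18.3 times the level of TRPC6 in p27-positive cells (2.35 ± 0.207 against 0.128 ± 0.0767 FPKM).

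Of the vanilloid channels, TRPV4, which responds to swelling and stretch, had the smallest adjusted p. Its normalized counts were 135, 197 and 143 in p27-positive libraries and 44.5, 45.6 and 63.9 in p27-negative libraries. The lowest p27-positive library held more than the highest p27-negative one. TRPV4 (chromosome 12, 109783087 to 109833406) rose 3.08-fold, by 1.60 ± 0.28 (limma, adjusted p = 5e-06), and kept its call under all 18 alternatives.

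TRPV2, a channel linked to growth factor signalling and stretch, was scarcer. It had 37, 31 and 39 reads in the p27-positive libraries, against 9, 17 and 3 reads in the p27-negative ones. The groups did not overlap, and the p27-negative libraries were the more uneven. TRPV2 (chromosome 17, 16415571 to 16437003) rose by 1.90 ± 0.65 (limma, adjusted p = 0.016), with a ratio of reads after size factors of 3.35 (95% counting interval 2.21 to 5.25). The call was lost when any 1 of 5 libraries was left out, since the adjusted p was 0.12, 0.098 and 0.11 without p27-positive replicate 1, 2 or 3, and 0.063 and 0.088 without p27-negative replicate 1 or 3. It was also lost with quantile normalization (0.077) and without the trended prior (0.073). Without p27-negative replicate 2, the library with the most TRPV2 reads among the p27-negative ones, the log2 fold change was 2.45 and the call was kept (adjusted p = 0.0081).

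TRPV1, the capsaicin and heat receptor, had 88.5, 80.6 and 92.0 normalized counts in p27-positive libraries and 44.5, 46.7 and 28.5 in p27-negative libraries. The groups did not overlap, and the p27-positive libraries were close together. TRPV1 (chromosome 17, 3565444 to 3609411) rose by 1.13 ± 0.35 (limma, adjusted p = 0.0076). The call was lost without p27-positive replicate 1 (adjusted p = 0.054) or 3 (0.062) and with quantile normalization (0.13). Its upstream end shares 1.17 kb on the same strand with SHPK, the gene of a sedoheptulose kinase, and reads of that stretch may have been left out or split. SHPK went the other way, with 127 ± 40.2 normalized counts in the p27-positive libraries, against 234 ± 47.9 in the p27-negative ones (log2 fold change -0.90 ± 0.21; limma, adjusted p = 4.5e-04). That call was lost without p27-positive replicate 1 (0.056) or 3 (0.052), without p27-negative replicate 3 (0.055), in the FPKM table (0.081) and without the trended prior (0.085). A second listed gene within TRPV1, ENSG00000261916, averaged 6.23 ± 4.57 normalized counts in the p27-positive libraries, against 2.08 ± 3.6 in the p27-negative ones (limma, adjusted p = 0.29). GENCODE release 29 also has an unlisted protein-coding gene on the same strand, AC027796.3 (3585149 to 3636249). The stretch of TRPV1 with ambiguous reads may therefore be longer than 1.17 kb.

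Of the melastatin channels, TRPM4, a calcium-activated channel that passes sodium and potassium but hardly any calcium, rose. Its normalized counts were 583, 575 and 451 in p27-positive libraries and 316, 359 and 282 in p27-negative libraries. The groups did not overlap, with p27-positive replicate 3 the nearest to the p27-negative libraries. TRPM4 (chromosome 19, 49157741 to 49211836) rose 1.68-fold, by 0.74 ± 0.13 (limma, adjusted p = 3.0e-06), and kept its call under all 18 alternatives.

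TRPM7, a channel fused to a protein kinase and a main route of magnesium entry, was the most abundant of the 8 and had no detected change. Its normalized counts were 2144, 2141 and 1817 in p27-positive libraries and 2034, 1957 and 2011 in p27-negative libraries. The groups overlapped, since p27-positive replicate 3 was the lowest of all 6 libraries. The log2 fold change of TRPM7 (chromosome 15, 50552473 to 50686797) was 0.02 ± 0.06 (limma, adjusted p = 0.85). The ratio of reads after size factors was 1.01, with a 95% counting interval of 0.975 to 1.05 that leaves out the spread between libraries.

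Per gene length the order of the levels was TRPM7, TRPM4, TRPC1, TRPV4, TRPV1, TRPV2, TRPC6 and TRPM2 in both sorts. In p27-positive cells the means were 7.07, 3.49, 2.35, 1.76, 0.679, 0.428, 0.128 and 0.0503 FPKM in that order, and in p27-negative cells 6.36, 1.9, 1.16, 0.521, 0.284, 0.118, 0.00259 and 0.00229 FPKM. Neighbours in this order did not overlap between libraries, with the exceptions of TRPC6 and TRPM2 in both sorts and of TRPV1 and TRPV2 in p27-negative cells. TRPM7 made up 44.3% of the summed mean FPKM of the 8 channels in p27-positive and 61.4% in p27-negative cells. The sum itself was 16 FPKM in p27-positive and 10.3 FPKM in p27-negative cells. FPKM values leaned more to p27-positive cells over all listed genes, with a median log2 fold change of 0.17, against 0.10 in normalized counts. TRPM7 was at 0.15 in FPKM, against 0.02 in normalized counts. The sums and shares may carry this lean.

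Of the 8 channels 6 rose, 0 fell, and TRPM2 and TRPM7 did not pass. The count of risers was 4 without p27-positive replicate 1 or 3 and with quantile normalization. It was 5 without p27-negative replicate 1 or 3, and with either filter for low counts, which left 6 channels. It was 7 without p27-negative replicate 2, with DESeq2 and with scaling to the library total. Among all 22794 listed genes 18.5% rose and 18.7% fell. In 7 of the 8 channels the groups did not overlap with p27-positive cells higher, against 23.4% of all listed genes. The median log2 fold change was 1.37 over the 8 channels and 0.10 over all listed genes. No listed gene had fewer than 10 reads in all. TRPC6 and TRPM2, with 1 p27-negative read each, reached this number only through their p27-positive reads. Both count among the 7 channels and in the median, and TRPC6 among the 6 risers, so these values carry that selection. Of all called genes 49.7% were increases, a share that was 64.1% with scaling to the library total, which moved the median of all genes by 0.12, and 61.9% in the FPKM table. With quantile normalization that median moved by -0.12.

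Increases were more frequent than decreases among scarce genes in general. TRPC6 and TRPM2 belong to the 8256 genes with 10 to 99 reads over all libraries, of which 5.55% rose and 1.04% fell at a median log2 fold change of 0.46. In that class 12.9% of the genes had at least 10 times as many reads in p27-positive as in p27-negative libraries, and 3.89% the reverse. TRPV1, TRPV2 and TRPV4 belong to the 4292 genes with 100 or more but under 1000 reads, of which 24.8% rose and 3.26% fell, with a median of 0.38. TRPC1, TRPM4 and TRPM7 belong to the 10246 genes with 1000 or more reads, of which 26.2% rose and 39.4% fell, with a median of -0.08. The part of this general lean in the increase of any channel was not tested.

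**Figure D2:**
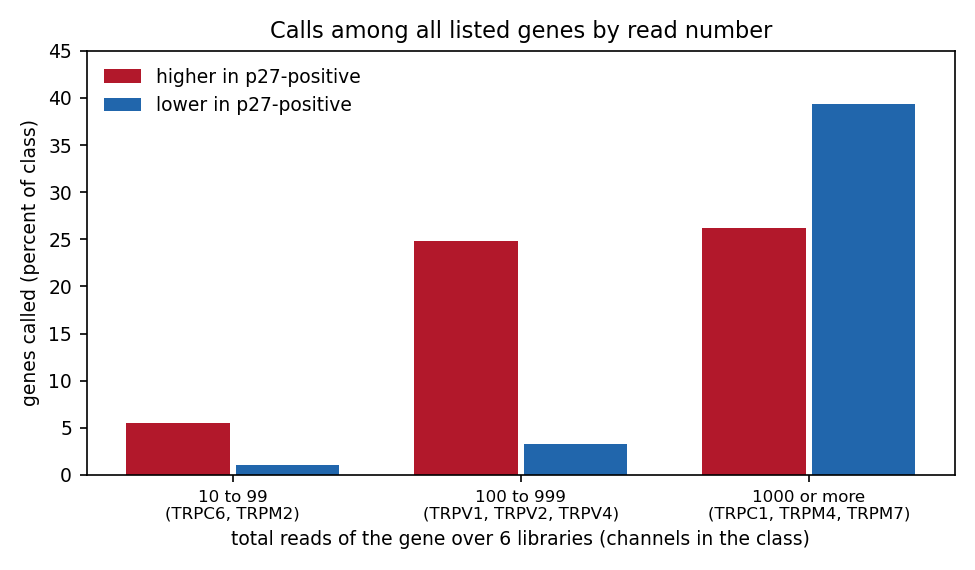
Share of all listed genes called higher (red) or lower (blue) in p27-positive cells, in 3 classes by total reads over the 6 libraries, with the channels of each class named below the bars. Increases outnumber decreases in both classes under 1000 reads, while among genes with 1000 or more reads 26.2% rose and 39.4% fell.

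The 5 protein-coding genes whose values lay nearest to those of TRPC6, by Euclidean distance in log2(normalized count + 1) over the 6 libraries among 14087 candidates, were CNTN1, ASGR1, RHBDL2, HLA-DOA and AKR1C3. CNTN1, which encodes a neuronal adhesion protein, was nearest at a distance of 0.788, with 36, 22 and 13 reads in p27-positive libraries and 0, 1 and 0 reads in p27-negative libraries. ASGR1, the asialoglycoprotein receptor subunit gene of the liver, followed at 1.29, with 13, 8 and 9 reads in p27-positive libraries and 0, 1 and 0 reads in p27-negative libraries. The distances of RHBDL2, HLA-DOA and AKR1C3 were 1.37, 1.47 and 1.48. All 5 were read in each p27-positive library and had at most 1 read in the p27-negative ones, as the measure of likeness requires.

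In the wider family, 6 of 19 other TRP genes were listed and 13 are not analysed here. Of the 6, 1 rose and 0 fell, against 18.5% and 18.7% of all listed genes, with a median log2 fold change of 0.04. The riser was TRPV3, the warmth-sensitive channel of keratinocytes. Its normalized counts were 135, 95 and 101 in p27-positive libraries and 27.6, 30.0 and 79.9 in p27-negative libraries. The groups did not overlap, with p27-negative replicate 3 close to the p27-positive libraries. TRPV3 rose by 1.40 ± 0.35 (limma, adjusted p = 9.8e-04), but the call was lost without p27-positive replicate 1 (adjusted p = 0.093), 2 (0.064) or 3 (0.064), without p27-negative replicate 1 (0.051), in the FPKM table (0.082) and without the trended prior (0.09). TRPV3 lies 7.63 kb from TRPV1 on the same strand.

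TRPM6, the magnesium channel kinase closest to TRPM7, had 23.8 ± 1.59 normalized counts in the p27-positive libraries, against 13.7 ± 10.3 in the p27-negative ones (1.09 ± 0.67; limma, adjusted p = 0.22). PKD2, the polycystin of the cilium and reticulum, was abundant and did not pass, with 2293 ± 125 normalized counts in the p27-positive libraries, against 2169.6 ± 201 in the p27-negative ones (0.08 ± 0.06; limma, adjusted p = 0.33). The lysosomal channel gene MCOLN1 was at 292 ± 55.2 normalized counts in the p27-positive libraries, against 303 ± 29.4 in the p27-negative ones (-0.07 ± 0.15; limma, adjusted p = 0.79). MCOLN3 and PKD2L2 had 18 and 28 reads in all and did not pass.

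**Figure D3:**
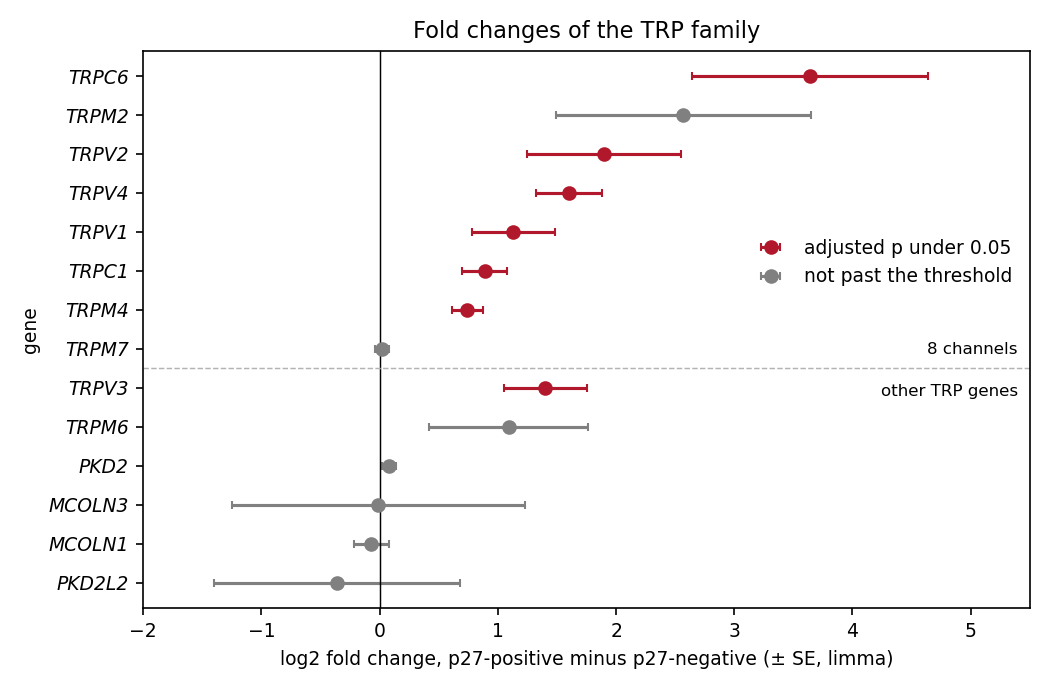
Log2 fold changes, p27-positive minus p27-negative, with standard errors from limma, for the 8 channels above the dashed line and the 6 other listed TRP genes below it. Red points passed an adjusted p under 0.05, and the error bars widen for genes with few reads such as TRPC6 (± 1.0) and TRPM2 (± 1.08).

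The genes that act before TRPC channels open went both ways. Of 14 listed genes of Gq proteins and phospholipases C, 4 rose and 4 fell, against 18.5% and 18.7% of all listed genes. The median log2 fold change of the 14 was -0.01. There were 4 higher and 2 lower under scaling to the library total and in the FPKM table. PLCE1, a Ras-regulated phospholipase C, rose by 0.51 ± 0.06 (limma, adjusted p = 4.0e-10), as did PLCB2 (0.50 ± 0.07), PLCD1 (0.69 ± 0.19) and PLCD3 (0.17 ± 0.05). The Gq subunit genes GNA11 (-0.35 ± 0.06) and GNAQ (-0.25 ± 0.06) fell, and so did the phospholipase genes PLCB3 (-0.47 ± 0.07) and PLCG1 (-0.21 ± 0.04). The calls of PLCE1, PLCB2, PLCB3 and GNA11 held under all 18 alternatives, those of GNAQ and PLCG1 under 14, that of PLCD3 under 16 and that of PLCD1 under 17. GNAQ and PLCG1 were lost with scaling to the library total (adjusted p = 0.11 and 0.12), with quantile normalization (0.1 and 0.41), in the FPKM table (0.099 and 0.21) and without the trended prior (0.06 and 0.093). PLCD1 was lost with quantile normalization (0.1), and PLCD3 without p27-positive replicate 2 (0.058) and without the trended prior (0.16).

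Among genes that remove or sense diacylglycerol, the TRPC6 agonist, 6 of 15 rose and 2 fell, with a median of 0.28. The shares over all listed genes were 18.5% and 18.7%. DGKA, a kinase that turns diacylglycerol into phosphatidic acid, had 1736, 1466 and 1481 normalized counts in p27-positive libraries and 603, 723 and 649.5 in p27-negative libraries. The groups lay far apart, and DGKA rose 2.37-fold, by 1.24 ± 0.08 (limma, adjusted p = 4.4e-18), a call kept under all 18 alternatives. DGKQ, another of these kinases, rose by 0.38 ± 0.09, a call lost without the trended prior (adjusted p = 0.069). DGKZ fell (-0.29 ± 0.06), a call lost in the FPKM table (adjusted p = 0.058). PRKCA, the gene of the diacylglycerol-activated kinase protein kinase C alpha, also fell, at 511 ± 30 normalized counts in the p27-positive libraries, against 762 ± 23.3 in the p27-negative ones (-0.58 ± 0.10; limma, adjusted p = 2.7e-06).

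Among 17 genes of proteins that bind TRP channels or affect their trafficking, 2 rose and 7 fell, with a median of 0.07. Over all listed genes 18.5% rose and 18.7% fell, and of those with 1000 or more reads 26.2% and 39.4%. The balance of the 17 genes depends on the scaling. It was 5 higher and 3 lower under scaling to the library total, and 4 higher and 4 lower in the FPKM table. FKBP4 and FKBP5, immunophilin co-chaperones of HSP90, fell by 0.75 and by 0.86 on the log2 scale, with SE of 0.04 and 0.07 (limma, adjusted p = 1.0e-20 and 1.9e-14). SESTD1, whose product binds phospholipids and TRPC channels, fell (-0.36 ± 0.06). The 2 that rose were FKBP1A, the gene of the immunophilin FKBP12, by 0.19 ± 0.04, and the scaffold gene NHERF1, by 0.30 ± 0.06. Both calls were lost without the trended prior (adjusted p = 0.11 for FKBP1A and 0.058 for NHERF1).

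Most NFAT factors and their calcineurin regulators act after calcium entry. Of the 7 such genes listed 4 rose and 1 fell, against 18.5% and 18.7% of all listed genes, with a median of 0.30. With quantile normalization 2 were higher and 2 lower, against 2 higher and 0 lower in the FPKM table. RCAN3, a calcineurin inhibitor gene, had 52.3, 42.2 and 29.5 normalized counts in p27-positive libraries and 8.90, 3.34 and 4.57 in p27-negative libraries. The groups did not overlap, and RCAN3 rose by 2.73 ± 0.66 (limma, adjusted p = 6.2e-04), a call kept under all 18 alternatives. The other risers were NFATC4 (1.46 ± 0.57), NFATC2 (0.64 ± 0.20) and NFAT5 (0.21 ± 0.06), and NFATC3 fell (-0.40 ± 0.08). The calls of NFATC2, NFAT5 and NFATC3 were lost without the trended prior (adjusted p = 0.1, 0.15 and 0.078), and those of NFATC2 and NFATC3 in the FPKM table (0.086 and 0.12). That of NFATC2 was also lost with quantile normalization (0.13), without any 1 of the p27-positive libraries (adjusted p = 0.074 to 0.12) and without p27-negative replicate 3 (0.073), and that of NFAT5 was lost without p27-positive replicate 2 (0.069) or p27-negative replicate 1 (0.06). NFATC4 was called under 10 of the 18 alternatives. Its adjusted p was 0.099, 0.31 and 0.18 without p27-positive replicate 1, 2 or 3, and 0.23 and 0.13 without p27-negative replicate 1 or 2. With quantile normalization, in the FPKM table and without the trended prior it was 0.17, 0.16 and 0.17.

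**Figure D4:**
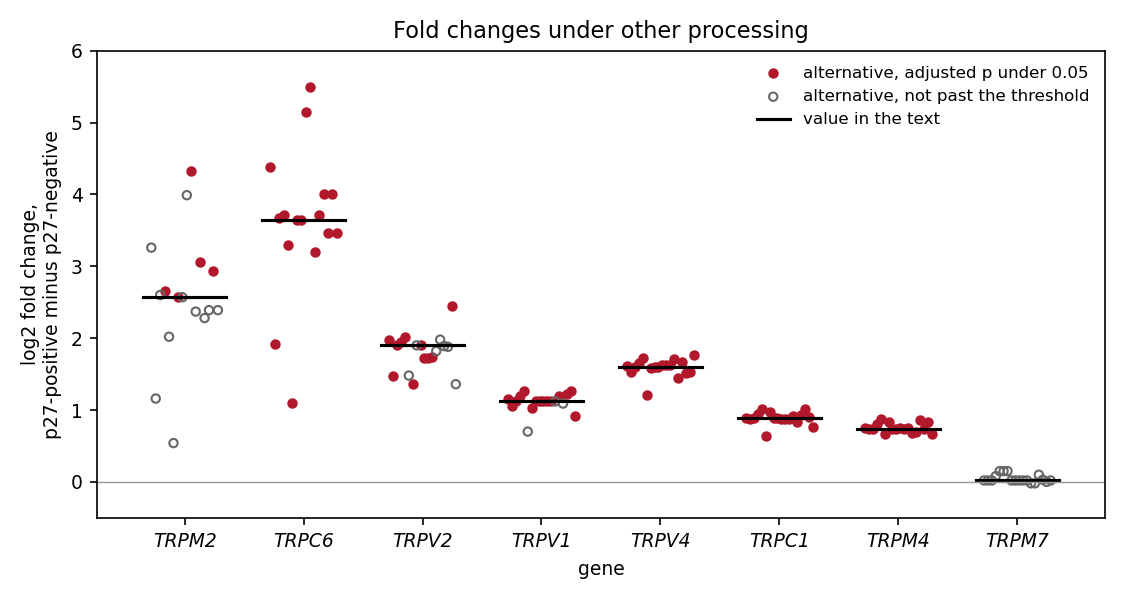
Log2 fold changes, p27-positive minus p27-negative, of the 8 channels under each alternative processing (filled red where the adjusted p was under 0.05, open otherwise), with the value in the text as a black line. TRPC1, TRPV4 and TRPM4 pass throughout, and TRPC6 passes wherever it was tested but ranges from 1.10 to 5.49.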

How the data were processed

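Poly(A) RNA libraries were made with a stranded kit, per the labels' protocols; STAR, featureCounts, DESeq2 and build hg38 are named in the submitters' processing notes, and versions, annotation release and strand setting were not given in the sources used here. The deposited signal holds gene counts that the authors divided by size factors of the libraries (per the file headers, which name DESeq2). A second deposited table gives FPKM values, per the file headers. All normalized counts (100% of values) were whole multiples of 1 step per library within 1e-06, so whole reads were recovered.

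The test was limma 3.58.1 in R 4.3.3, two-sided with a trended prior, on log2(normalized count + 1), over all 22794 listed genes, with 1 term for the sort, and calls at a Benjamini-Hochberg adjusted p under 0.05. No gene had fewer than 10 reads in all. Where no other tool is named, an adjusted p comes from this fit. The alternatives were other pseudocounts, filters and scalings, the FPKM table with log2(FPKM + 0.1), no trended prior, a replicate block, edgeR 4.0.16 and DESeq2 1.42.0 on recovered reads, and fits without 1 library each. Counting intervals are exact binomial at 95% confidence and cover counting error only.

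The members and 5 gene lists were chosen with earlier results of these data known. The named genes are the 8 channels, up to 4 genes of each list with the smallest p, listed genes that overlap a channel, the 5 protein-coding genes nearest to TRPC6, and CDKN1B and MKI67. PLCD1, PLCD3, PLCG1, GNAQ, NHERF1, NFATC4, MCOLN3, PKD2L2 and single markers were named after their values were seen. No 2 libraries of 1 sort matched within counting noise (chi-square over degrees of freedom 5.14 to 6.27 in 6 pairs).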

Additional observations from a re-analysis of the deposited data

How the results depend on the processing

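No channel was called lower under any of the 18 alternatives, and TRPC6 kept its direction and call in the 16 that could test it, at 1.10 to 5.49. Requiring a mean normalized count of 10 and edgeR's expression filter removed TRPC6 and TRPM2. With each library left out the number of channels called higher was 4 to 7, TRPC6 was at 3.2 to 4.0, and the calls over all genes were 6616 to 7481. The value of TRPM7 turned to -0.02 without p27-positive replicate 1 or 2, and was -0.02 to 0.1 with each library left out. The called genes of the other TRP list, 1 in the text, were 2 with scaling to the library total and with quantile normalization, 0 in the FPKM table and without the trended prior, and 0 to 1 with a library left out. Without the trended prior the called genes were 5 of the Gq and phospholipase C list, 5 of the diacylglycerol list, 4 of the partner list and 1 of the NFAT list. In the FPKM table they were 4 for the diacylglycerol list and 2 for the NFAT list. With a library left out they were 5 to 7 for the diacylglycerol list, 2 to 4 for the NFAT list, and 7 to 8 for the Gq and partner lists. The cause of these moves was not tested. Same-numbered libraries did not deviate together (correlations of 0.00898, -0.000512 and 0.0106). No large effect shared by number was thus seen, but whether same-numbered libraries came from the same culture cannot be told from it. With the replicate block 6 channels and 8439 genes were called, against 6 and 8473 without it, and TRPC6 was at 3.64. Depth limits TRPC6, TRPM2 and TRPV2, where single reads move the p27-negative values.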
